A study of Mus musculus with 6 samples.

Results

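The hormones that fat cells secrete, the receptors through which muscle answers 1 of them, and general fat-cell genes were measured in muscle RNA of mice with and without SIRT6, an enzyme of the sirtuin family that removes acyl groups from histones. The 10 genes were chosen by name: Adipoq, Lep, Retn, Cfd and Rbp4 for secreted products, Adipor1 and Adipor2 for adiponectin receptors, Pparg and Cebpa for transcription factors, and Fabp4 for a lipid carrier. The platform annotation gave 15 probe sets to 9 of them, out of 45101 probe sets on the array. Each probe set combines several short oligonucleotides for a transcript into a single intensity. Cfd, which encodes adipsin, a protease of the complement system, was paired with no probe set in the annotation table and was not analysed here.

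The arrays were 3 from WT mice (wild type) and 3 from SIRT6KO mice (KO), all of the 129SvJ strain background, with 1 Affymetrix Mouse Genome 430 2.0 array per replicate of muscle total RNA. How the gene was deleted, which muscle was sampled, and the age and sex of the mice are not stated in the labels.

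Fat cells lie between muscle fibres and around the muscle, so whole-muscle RNA holds some fat-cell RNA. The nuclear receptor PPARgamma, encoded by Pparg, and the leucine zipper factor C/EBPalpha, encoded by Cebpa, drive fat-cell formation and keep the mature cell's genes on. Mature fat cells release adiponectin, leptin, resistin, adipsin and retinol binding protein, and adiponectin acts on muscle through the receptors AdipoR1 and AdipoR2, which favour fatty acid oxidation.

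Array medians ran from 10.8 to 15, and the number of arrays limits the precision. WT replicate 1 was the brightest array. The median of its 9 hybridization control probe sets, transcripts added in fixed amounts, was 1.87 times that of the median array, and the remaining 5 arrays lay at 0.954 to 1.03. It was the highest WT array at 13 of the 15 probe sets, so each difference below was also computed with that array left out and with all arrays scaled to these controls. The muscle fibre gene Ckm read 9227 to 16059 over the 6 arrays. Sirt6 (1429631_at) read 23.2, 15.1 and 21.3 in WT and 22.6, 18.3 and 13.7 in KO, and whether this probe set lies in the deleted part is not known here, so it checks no label. Xist (1427262_at), expressed from the inactive X chromosome, read 1.5, 0.7 and 3.4 in WT and 221.7, 239.9 and 250.9 in KO. Of 7 Y-linked probe sets with a WT mean of at least 16, 6 had all KO arrays below all WT arrays, so genotype and sex cannot be told apart in any result here.

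None of the 15 probe sets passed the test between KO and WT (limma, adjusted p under 0.05 over 45037 probe sets), where 0.00888% of all probe sets did. At an unadjusted p under 0.05 there were 4 of the 15, all lower in KO, against 4.99% of all probe sets in that direction. The same 4, those of Rbp4, Cebpa, Retn and Lep, had every KO array below every WT array, which is 26.7% of the members against 7.29% of all probe sets. Among the 14 above the median level there were 3 (21.4%), against 8.94% of all probe sets at that level. No member had every KO array above every WT array, where 5.02% of all probe sets did. The members were chosen with earlier results of these data known, so these shares describe them and carry no test. In a test limited to probe sets above the median level, 0.351% of all passed and again no member did, with Rbp4 nearest at an adjusted p of 0.0621 (limma). The other 11 probe sets, of Adipoq, Fabp4, Pparg, Adipor1 and Adipor2, overlapped between the groups. In bulk RNA, fewer fat cells and less of a transcript per fat cell cannot be told apart.

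**Figure D1:**
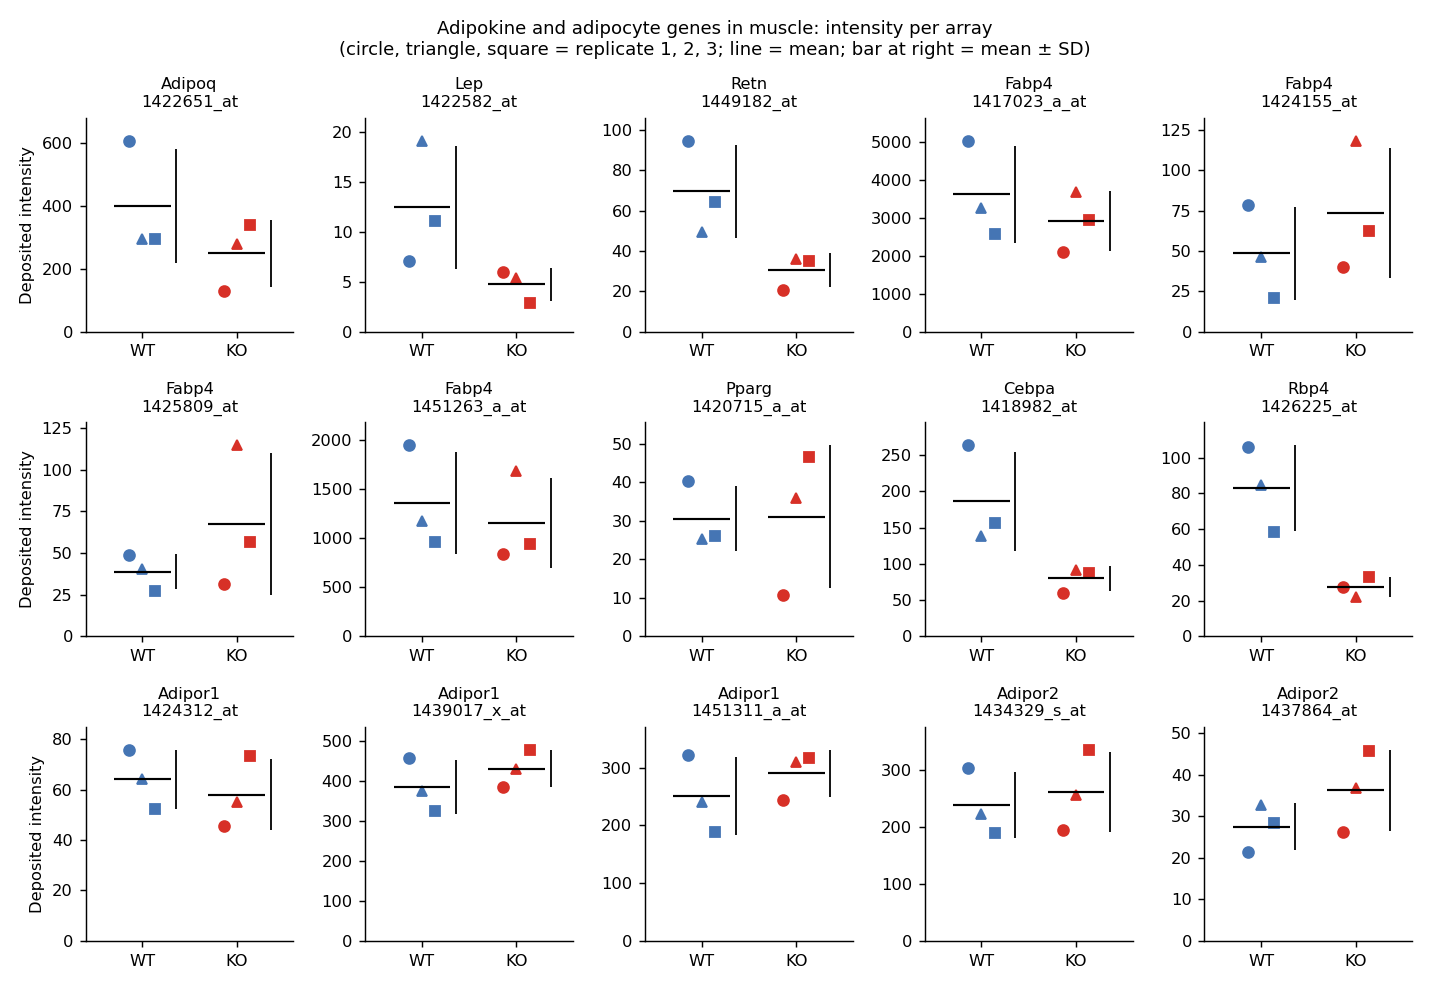
Deposited intensity (y axis, linear, from 0) of each of the 15 probe sets in the WT arrays (blue) and KO arrays (red); circles, triangles and squares are replicates 1, 2 and 3, horizontal lines are group means and vertical bars the mean ± SD. Rbp4, Cebpa, Retn and Lep have all red points below all blue points, and the other panels overlap.

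Among the secreted products, Rbp4 had the largest difference. It encodes the carrier that takes retinol through the blood, made by liver and fat. Probe set 1426225_at read 106.1, 84.6 and 58.3 in WT and 27.8, 21.9 and 33.1 in KO. The lowest WT array was well above the highest KO array. The means were 83.0 ± 23.9 and 27.6 ± 5.60 (SD, n = 3 each), a log2(intensity + 16) difference of -1.16 with SE 0.210 and an adjusted p of 0.430 by limma. The fold was 2.24 lower in KO, and the 95% interval of the log2 difference ran from -1.66 to -0.66. An offset of 16 was added before taking logs, which understates the change of dim probe sets. The difference was -0.996 without WT replicate 1 and -0.87 with the arrays scaled to the hybridization controls. Of 4 measured hepatocyte markers, 2 were higher and 2 lower on average in KO. Alb was highest in WT replicate 2, at 303.1, with the remaining arrays at 29.9 to 117. WT replicates 1 and 3, at 42.3 and 29.9, lay below every KO array for Alb. Apoa1 and Ttr had log2 differences of -0.28 and -0.12, against 0.13 for Alb and 0.11 for Fgb. The part of liver RNA in the Rbp4 values was not tested.

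Retn encodes resistin, a hormone that in mice is made by fat cells. Probe set 1449182_at read 94.7, 49.6 and 64.5 in WT and 20.8, 35.9 and 35 in KO. All KO arrays were below all WT arrays, with KO replicate 1 the lowest. The means were 69.6 ± 23.0 and 30.6 ± 8.47 (SD, n = 3 each), a log2 difference of -0.86 with SE 0.235 (limma adjusted p = 0.524) and a fold of 1.82 lower. It was -0.66 without WT replicate 1 and -0.58 with arrays scaled to the hybridization controls.

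Lep encodes leptin, the hormone that reports fat stores to the brain. Probe set 1422582_at was dim, at 7.1, 19.1 and 11.1 in WT and 6, 5.4 and 2.9 in KO. These values lie around or below the median of the arrays, and this was the 1 member below the median level of all probe sets. The KO arrays were below the WT arrays, but the lowest WT value and the highest KO value were close. The log2 difference was -0.43 with an interval from -0.86 to -0.01 (limma adjusted p = 0.582), and it was -0.27 without WT replicate 2, the brightest array for this gene. On this offset a dim signal gives a small difference, and with an offset of 1 it was -1.17.

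Adipoq encodes adiponectin, a hormone secreted by fat cells. Probe set 1422651_at read 606.9, 295.6 and 293.9 in WT and 131, 277.8 and 339.5 in KO. KO replicates 2 and 3 lay beside WT replicates 2 and 3, whereas WT replicate 1 stood high and KO replicate 1 low. The means were 399 ± 180.2 and 249 ± 107 (SD, n = 3 each), a log2 difference of -0.66 with SE 0.407 (limma adjusted p = 0.699). This difference was -0.32 without WT replicate 1, -0.28 without KO replicate 1 and -0.31 with arrays scaled to the hybridization controls. The interval of the difference, from -1.63 to 0.31, holds both no change and a loss as large as that of Rbp4.

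The transcription factor Cebpa lay with Retn and Rbp4. Probe set 1418982_at read 263.7, 138.6 and 156.1 in WT and 60.1, 91.9 and 87.9 in KO. The highest KO array was below the lowest WT array. The means were 186 ± 67.7 and 80.0 ± 17.3 (SD, n = 3 each), a log2 difference of -1.04 with SE 0.260 (limma adjusted p = 0.524) and a fold of 2.06 lower. The difference was -0.78 without WT replicate 1 and -0.71 with arrays scaled to the hybridization controls, so its direction did not rest on the bright array.

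Pparg lay otherwise. Probe set 1420715_a_at read 40.3, 25.3 and 26 in WT and 10.6, 36 and 46.6 in KO. KO replicate 1 was the lowest of the 6 arrays and KO replicate 3 the highest, so the KO range covered the WT range. The log2 difference was -0.06 with an interval from -0.84 to 0.72 (limma adjusted p = 0.986). It was 0.31 without KO replicate 1, 0.09 without WT replicate 1 and 0.18 with arrays scaled to the hybridization controls.

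To show what lies before the start sites of these genes, the 250 bases upstream were taken from RefSeq (GRCm38.p6). They are printed for Lep, Cebpa and Rbp4, where the groups did not overlap, and for Adipoq as the fat-cell hormone where they did. Retn, where the groups did not overlap either, is not printed, and its window is described below. The table held 8 of the 9 measured genes, all but Fabp4. The 5 motifs searched on both strands were TTGCNNAA (a core that C/EBP factors bind), CCAAT (a promoter box), AGGTCA (a single nuclear receptor site), a pair of AGGTCA copies in the same direction with any 1 base between them (the element of PPARgamma with its RXR partner), and TATAAA (the TATA box). TTGCGCAA, counted as well, is one form of the first, and the pair holds the single site. The motifs were chosen with the sequences in view. Matches, which read as the reverse complement where they lie on the other strand, are in capitals.
Lep (chr6:29059971-29060220, plus strand): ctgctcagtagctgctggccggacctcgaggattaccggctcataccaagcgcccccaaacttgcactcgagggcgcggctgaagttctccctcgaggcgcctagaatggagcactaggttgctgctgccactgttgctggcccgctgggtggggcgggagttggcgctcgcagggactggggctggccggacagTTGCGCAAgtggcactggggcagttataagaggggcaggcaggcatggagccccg
Cebpa (chr7:35119043-35119292, plus strand): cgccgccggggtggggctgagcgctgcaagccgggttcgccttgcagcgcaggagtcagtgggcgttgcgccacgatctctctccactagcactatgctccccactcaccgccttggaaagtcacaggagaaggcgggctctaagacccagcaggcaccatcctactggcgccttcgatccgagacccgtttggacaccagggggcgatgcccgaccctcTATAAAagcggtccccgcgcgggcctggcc
Rbp4 (chr19:38125322-38125571, minus strand): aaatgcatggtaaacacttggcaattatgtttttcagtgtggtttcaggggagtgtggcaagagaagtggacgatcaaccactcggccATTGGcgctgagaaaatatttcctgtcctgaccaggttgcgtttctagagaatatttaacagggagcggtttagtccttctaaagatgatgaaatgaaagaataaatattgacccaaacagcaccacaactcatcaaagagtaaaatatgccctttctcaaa
Adipoq (chr16:23146286-23146535, plus strand): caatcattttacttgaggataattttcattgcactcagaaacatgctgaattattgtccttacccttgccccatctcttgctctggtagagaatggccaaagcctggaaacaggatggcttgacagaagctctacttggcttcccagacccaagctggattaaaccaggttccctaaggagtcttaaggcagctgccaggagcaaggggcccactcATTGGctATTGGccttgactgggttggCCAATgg

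The Lep window held TTGCGCAA, a palindrome that matches the C/EBP core on both strands, 55 to 48 bases before the start. TTGCNNAA was found in 9.56% of all 32851 windows of this length and TTGCGCAA in 0.164%. Pparg, where the groups overlapped, also held the core, in the window of its start 3. There it read TTGCCAAA 215 to 208 bases before the start and TTTTGCAA 16 to 9 bases before it. Rbp4 has a further start site in the table, whose window (minus strand of the same build) held TTATGCAA, a match of the C/EBP core on the other strand, 128 to 121 bases before it. The Adipoq window held CCAAT 3 times, all within 34 bases of the start, and the Rbp4 window printed above held it once. Windows of Pparg and Adipor1 starts held CCAAT as well, as did 33.8% of all windows. Cebpa held a TATAAA 30 to 25 bases before its start. The further Rbp4 start had one 28 to 23 bases before it, and Pparg start 2 had one on the other strand, 29 to 24 bases before it. TATAAA was found in 12.4% of windows. The Retn window held none of the 5 motifs. The paired element, present in 0.0335% of all windows, was in none of the member windows, and the single AGGTCA, in 14% of windows, was in those of 2 of the 3 Pparg starts. A match is a description of letters and shows no binding.

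Fabp4, the fatty acid carrier of fat cells, macrophages and capillary endothelium, had 4 probe sets that went both ways. The brightest, 1417023_a_at, read 5040, 3273 and 2569 in WT and 2115, 3693 and 2951 in KO. The groups overlapped, with KO replicate 2 above WT replicates 2 and 3. Its log2 difference was -0.29 with an interval from -1.01 to 0.42 (limma adjusted p = 0.842), and 0.07 with arrays scaled to the hybridization controls. Probe set 1451263_a_at read 1946, 1171 and 959.8 against 841.8, 1683 and 939.7, a log2 difference of -0.24. The 2 dim probe sets had higher means in KO. Probe set 1424155_at read 78.5, 46.3 and 20.9 in WT and 40, 118.5 and 62.2 in KO, and 1425809_at read 48.6, 40.6 and 27.5 against 31.2, 114.8 and 56.4. Their log2 differences were 0.48 and 0.50, with adjusted p of 0.808 and 0.755 by limma. KO replicate 2 was the highest KO array at all 4 probe sets. Of the 10 endothelial markers, 7 were highest of all arrays in KO replicate 2, while Cldn5 was highest in KO replicate 3, Flt1 in WT replicate 2 and Kdr in WT replicate 1. On average 9 of the 10 were higher in KO, and their summed intensity was 728 to 926 in WT and 892.7, 1338 and 943 in the KO arrays. Their part in the Fabp4 values was not tested.

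**Figure D2:**
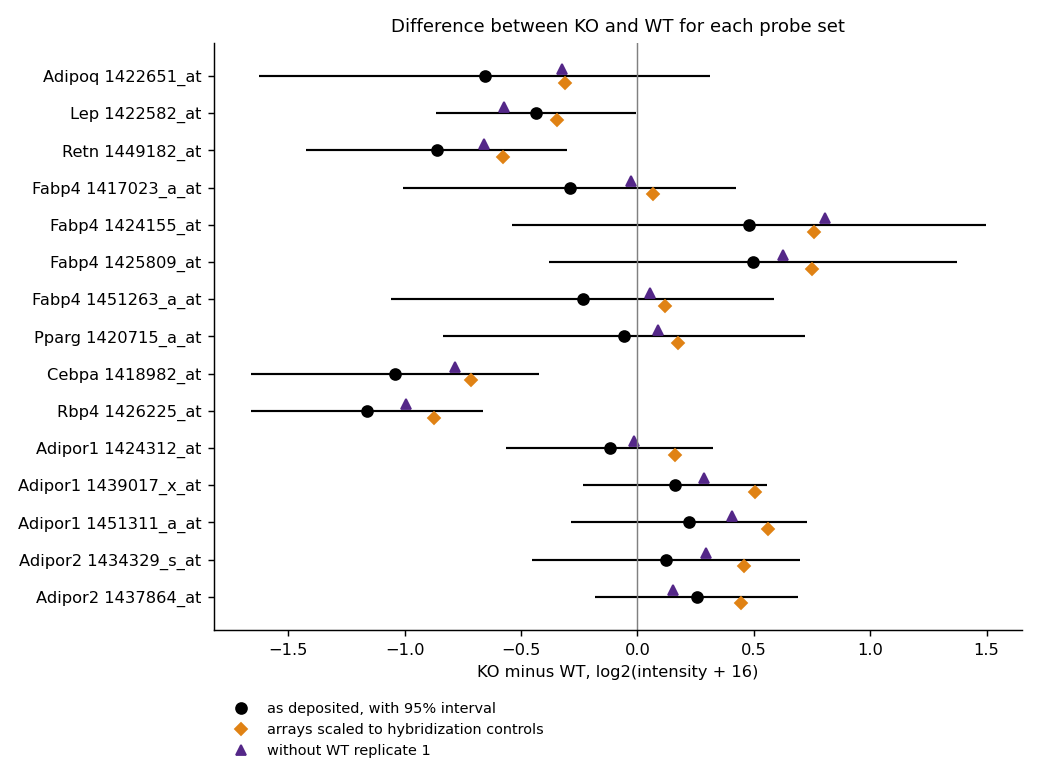
KO minus WT difference on the log2(intensity + 16) scale (x axis) for each of the 15 probe sets (y axis). Black circles with bars are the values as deposited with their 95% intervals, orange diamonds the values with arrays scaled to the hybridization controls, and purple triangles those without WT replicate 1. Rbp4, Cebpa, Retn, Lep and Adipoq have their points left of 0 under all 3 settings, though the interval of Adipoq holds 0. Pparg, the 2 bright Fabp4 probe sets and Adipor1 1424312_at have points on either side of 0.

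No difference in the adiponectin receptors passed the test, and both groups overlapped at all of their probe sets. Adipor1, the receptor that prevails in muscle, read 458.9, 374.8 and 325.2 in WT and 385.4, 429.9 and 479.1 in KO at probe set 1439017_x_at. The KO arrays lay within or just above the WT range. The log2 difference was 0.16 with an interval from -0.23 to 0.56 (limma adjusted p = 0.840). Probe set 1451311_a_at read 322, 240.9 and 188.8 against 243.3, 310.4 and 317.2, with a difference of 0.22, and 1424312_at read 75.8, 64 and 52.4 against 45.7, 55.1 and 73.3, with a difference of -0.12. Of the 3 probe sets, then, 2 had higher means in KO and 1 a lower mean, and all overlapped. With arrays scaled to the hybridization controls the 3 differences were 0.51, 0.56 and 0.16.

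Adipor2 encodes the second receptor, which prevails in liver. Probe set 1434329_s_at read 303.8, 223.9 and 189.7 in WT and 195.9, 256 and 336.3 in KO, and 1437864_at read 21.5, 32.7 and 28.3 against 26.3, 36.7 and 45.8. In both, KO replicate 3 was the highest array and the groups overlapped. The log2 differences were 0.12 (interval -0.45 to 0.70) and 0.26 (interval -0.18 to 0.69), with adjusted p of 0.937 and 0.746 by limma. The intervals of all 5 receptor probe sets exclude a 2.06-fold loss of the size measured at Cebpa, which is -1.04 on the log2 scale.

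The arrays did not order the genes alike. KO replicate 1 was the lowest KO array at 13 of the 15 probe sets, the exceptions being Rbp4, lowest in KO replicate 2, and Lep, lowest in KO replicate 3. Against the WT mean, KO replicates 1, 2 and 3 lay at -1.41, -0.42 and -0.14 for Adipoq on the log2 scale and at -0.79, 0.18 and 0.44 for Pparg. For Rbp4 they lay at -1.15, -1.36 and -0.98, and for Cebpa at -1.36, -0.86 and -0.91. Rbp4 and Cebpa were thus low in all 3 KO arrays, whereas Adipoq and Pparg were far below the WT mean in KO replicate 1 alone. The difference between these genes' patterns was not tested.

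Other white fat-cell genes showed both forms. Of the 19 genes listed, 17 were measured, 12 lower and 5 higher on average in KO, with a median log2 difference of -0.70 against -0.02 over the brightest probe sets of all named genes. The list median was -0.42 without WT replicate 1 and -0.37 with arrays scaled to the hybridization controls. None of the 17 passed the test over all probe sets (0 by limma). At an unadjusted p under 0.05 (limma) there were 8 of the 17 in the lower direction, against 4.99% of all probe sets, and 2 in the higher one. In either direction, 3856 of all 45037 probe sets tested reached it. All KO arrays lay below all WT arrays at 7 genes, against 7.29% of all probe sets and 8.94% of those above the median level. They lay above all WT arrays at 2 genes, against 5.02% of all probe sets. Agpat2, an acyltransferase of triglyceride synthesis, read 161.8, 96.5 and 88.9 in WT and 31, 24 and 27.6 in KO. Pck1, whose enzyme acts at an early step towards glycerol phosphate for fat storage, read 284.2, 177.6 and 108 against 62.6, 51.2 and 68.3. Both had the KO arrays close together and below every WT array. Scd1, a fatty acid desaturase, and Gpd1, a glycerol phosphate dehydrogenase, also had KO below WT, with log2 differences of -2.89 and -0.90. In the test limited to probe sets above the median level Scd1 and Agpat2 passed, with adjusted p of 0.000571 and 0.0134 (limma). Scd1 also passed there with any 1 array left out, at 0.0139 without WT replicate 1, whereas the Agpat2 call ended when WT replicate 1 (0.198), WT replicate 3 (0.0555) or KO replicate 2 (0.137) was dropped. Cidec, a lipid droplet protein of fat cells, was on the other hand like Pparg, at 102.7, 65.1 and 53.4 in WT and 30.9, 63 and 132.3 in KO (limma adjusted p = 0.979). Plin4 and Pnpla2, lipid droplet genes that muscle fibres express too and that were picked after their values were seen, had all KO above all WT, with log2 differences of 1.51 and 1.21.

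**Figure D3:**
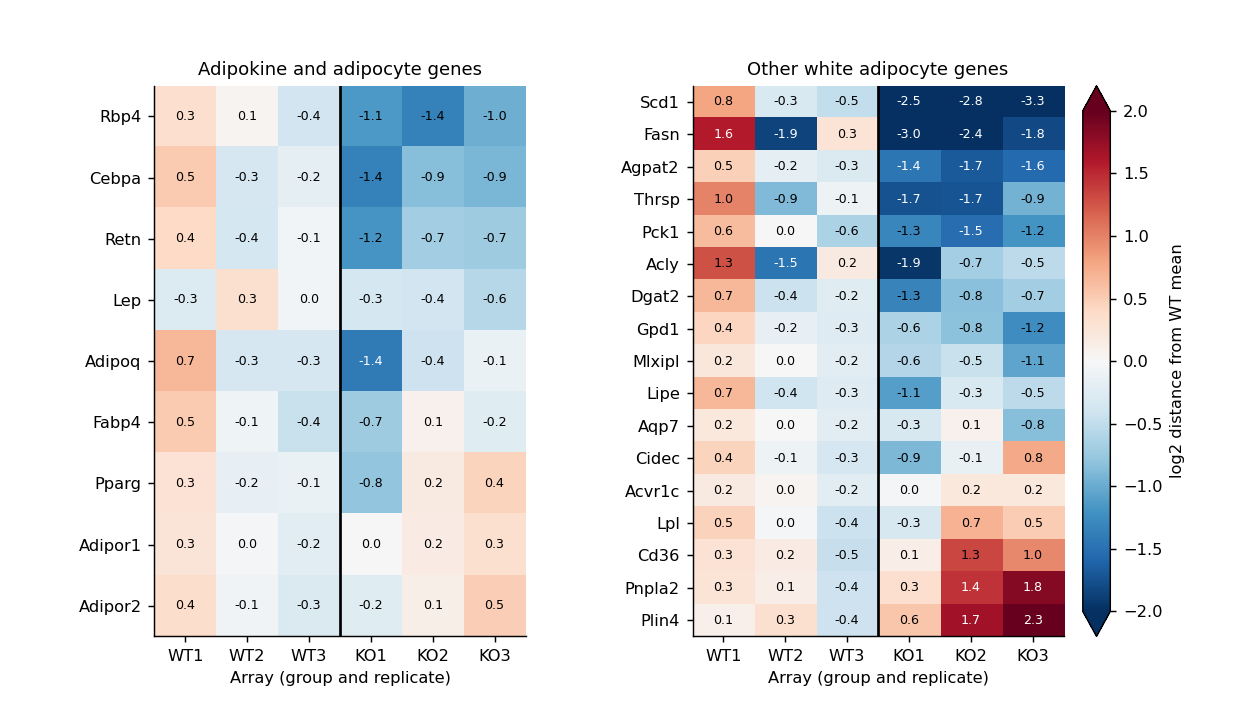
log2 distance of each array from the WT mean (colour, with the value in each cell) for the 9 measured genes at their brightest probe set (left) and for the 17 other white fat-cell genes (right); columns are arrays, WT left of the black line and KO right of it, and colours saturate at 2. Rbp4, Cebpa and Retn are low in all 3 KO arrays, Adipoq and Pparg mainly in KO replicate 1, and Plin4 and Pnpla2 are high in KO.

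Brown fat-cell genes are given as the other fat-cell type a muscle sample can hold. Of 8 measured genes 7 were lower and 1 higher on average, 0 passed, and the median log2 difference was -0.07. Ucp1, the uncoupling protein of brown fat, read 877.2, 570.3 and 586.1 in WT and 129.9, 5.9 and 2.3 in KO, and Cidea read 824, 429.9 and 442 against 164, 135.8 and 191.2. Elovl3, a fatty acid elongase of brown fat, was dim and overlapped, at 10.3 to 15.7 and 7.7 to 21.2. Otop1, also dim, read 29.8, 19 and 14.6 in WT and 9.6, 7.2 and 0.3 in KO. Ucp1, Cidea and Otop1 were the 3 of the 8 with all KO arrays below all WT arrays, against 7.29% of all probe sets. In the test limited to probe sets above the median level both Ucp1 and Cidea passed, with adjusted p of 0.00237 and 0.0162 (limma). Both calls ended without WT replicate 1 (0.198 for Ucp1 and 0.205 for Cidea) and without WT replicate 3 (0.0628 and 0.0730), and that of Cidea also without KO replicate 2 (0.164). The defining brown marker Ucp1 was thus near 0 in KO replicates 2 and 3, where Adipoq was near its WT level. The summed intensity of the 3 brown markers Ucp1, Cidea and Elovl3 was 1011, 1041 and 1717 over the WT arrays and 162.9 to 302 over the KO arrays. Of 6 white fat-cell markers 4 were measured, Plin1 and Adrb3 not being analysed here, and all 4 were lower on average in KO, with sums of 423 to 811 in WT and 189 to 509.7 in KO that overlapped. Adipoq, Lep and Retn are among these 4. The part of either marker list in the Retn, Cebpa and Rbp4 values was not tested.

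Transcription factors that act with Pparg and Cebpa in fat-cell formation had no common direction. Of 14 measured, 6 were higher and 8 lower on average, 0 passed, and the median log2 difference was -0.03. Cebpd, an early factor of the same family as Cebpa, read 192.8, 138.3 and 39.2 in WT and 172.8, 657.1 and 2007 in KO, and Klf15 read 105.2, 84.1 and 41.1 against 104.8, 253.9 and 508.3. Both were highest in KO replicate 3 and overlapped between groups. Stat5a read 61.3, 44.1 and 42.8 against 34.6, 35.6 and 30.2, and Zfp423, a factor of fat-cell precursors, 33.3, 17.2 and 15 against 16.5, 0.7 and 1. Of 7 measured inhibitors of fat-cell formation all 7 were higher on average, with a median log2 difference of 0.29 and 0 passing. This median was 0.50 with arrays scaled to the hybridization controls, where that of all probe sets was 0.11, and 0.15 with an offset of 64. Foxo1, which represses Pparg, read 76, 71.2 and 62.5 in WT and 101, 163 and 248.9 in KO (limma adjusted p = 0.524). Wnt10b also had all KO above all WT, but was dim at 2 to 5.5 and 6.3 to 9.1.

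The genes around the hormones and their receptors had medians near 0, whose sign turned with the scaling: with arrays scaled to the hybridization controls they were 0.21 for the adiponectin list, 0.20 for the leptin list and 0.25 for the transcription factors above, against 0.11 over all probe sets. The list of adiponectin assembly and response had 6 of 13 measured genes higher and 7 lower, a median log2 difference of -0.04 and 0 passing. None of its genes reached an unadjusted p under 0.05. Acacb, the mitochondrial acetyl-CoA carboxylase downstream of AMPK, read 281.5, 240.8 and 145 in WT and 226.4, 405.3 and 692.5 in KO. Cdh13, which encodes T-cadherin, an adiponectin binding protein, read 304, 312.4 and 235.9 against 279, 266.3 and 121.7. The leptin receptor list had 2 of 7 higher and 5 lower, a median of -0.06 and 0 passing. Lepr itself was dim, at 5.9 to 20 in WT and 3.8 to 15.9 in KO, and Socs3, a feedback inhibitor of leptin signalling, read 30.9, 35.5 and 24.6 against 2.6, 29.7 and 16.8.

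Other secreted adipokines had 7 of 15 measured genes higher and 8 lower, a median log2 difference of -0.05 and 0 passing. Nrg4 read 37.8, 24.7 and 23 in WT and 16, 10.4 and 14 in KO, and Metrnl 75.7, 73.3 and 60.2 against 49.7, 49.6 and 27.7. In both, every KO array was below every WT array. Agt, the angiotensin precursor, lay the other way at 7.1, 39.4 and 4.8 against 41.2, 72.2 and 42.7. Their adjusted p values were 0.529, 0.561 and 0.560 by limma.

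**Figure D4:**
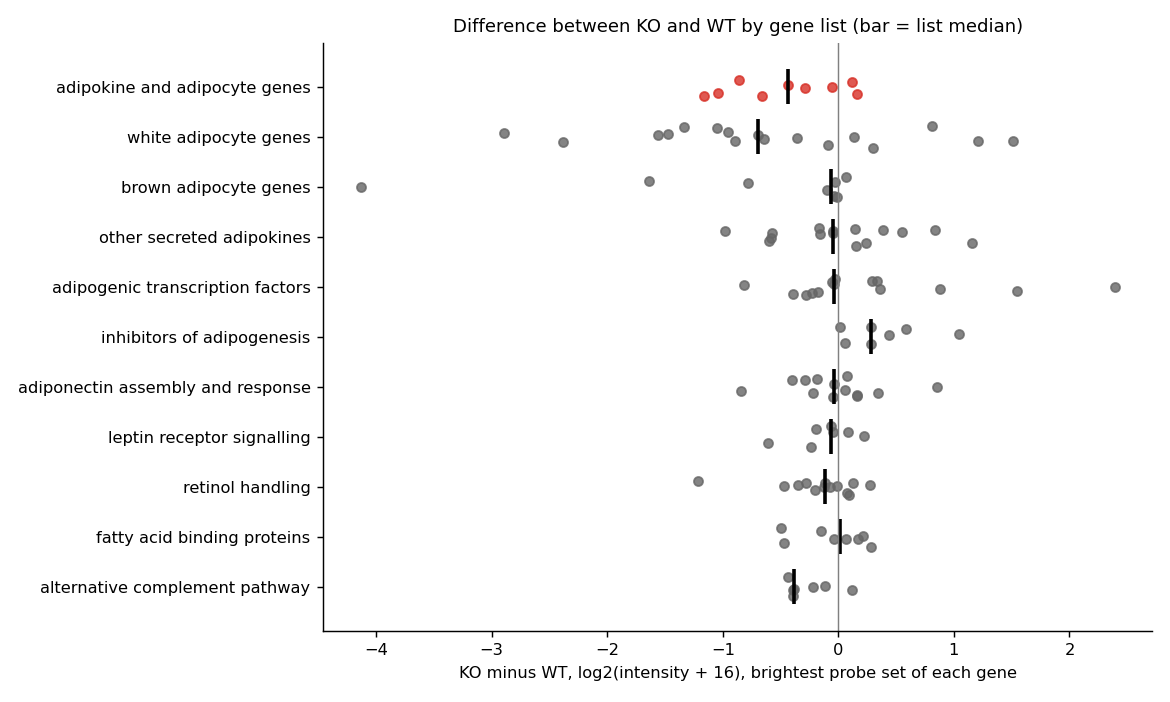
KO minus WT difference on the log2(intensity + 16) scale (x axis) of every measured gene in each list (rows), at its brightest probe set; red points are the 9 measured adipokine and adipocyte genes, grey points the genes of the other lists, and black bars the list medians. The white adipocyte genes spread from -2.89 to 1.51, while the adiponectin and leptin lists have medians of -0.04 and -0.06, which turn positive with arrays scaled to the hybridization controls.

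The genes most like Adipoq over the 6 arrays were taken from 4550 genes with a mean intensity of at least 64, by Pearson correlation of log2 levels. The first was Mgst1, a microsomal glutathione transferase, with r = 0.993 and Spearman's rho = 0.943. It read 512.3, 268.8 and 249.4 in WT and 125.8, 229.2 and 268.2 in KO, the order of arrays seen at Adipoq but for 1 exchange of neighbours. Plekhh1, Cnot8, Arf4, Gm2a and Mtarc2 followed at r = 0.986, 0.981, 0.975, 0.975 and 0.974. Without WT replicate 1 and KO replicate 1, the arrays farthest from the median of Adipoq, r was 0.736 for Mgst1, 0.894 for Plekhh1, 0.995 for Arf4 and 0.954 for Mtarc2. It was -0.16 for Cnot8 and -0.65 for Gm2a, whose likeness therefore rested on those 2 arrays. These genes were picked as the highest of 4550 and share the brightness of WT replicate 1, so the values describe 6 arrays and carry no test.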

How the data were processed

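The values the authors deposited are linear intensities, 1 for each probe set in each array. Total RNA came from a TriPure extraction and carried a biotin label, per the labels' protocols. The scanner software, scaling and background correction were not given in the sources used. Of 45101 probe sets, 64 manufacturer's controls were left out and 45037 tested. The platform annotation gave 1 symbol to 34945 probe sets, several to 932 and none to 9160. Intensities were converted to log2(value + 16) and the groups compared with limma 3.58.1 (lmFit, eBayes, two-sided) in R 4.3.3. P-values were adjusted over all probe sets by the Benjamini-Hochberg method, with a threshold of 0.05, and intervals are 95%. They rest on the spread between these arrays, and eBayes draws the variance of each probe set toward a value shared by all those tested. The script was tested on simulated data. A gene in a list is represented by its brightest probe set, and lists are described by counts and medians.

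The members and lists were chosen with earlier results of these data known. The text names every member probe set, the fat-cell markers, checks of the labels, and the 6 genes most like Adipoq. Of each list it names some or all of the 4 genes with the lowest p, besides a few given as markers or for contrast. Other settings tried were quantile normalization, median centring, dropping probe sets below the median level, a variance fitted with trend and robust options, a replicate block, offsets of 1 and 64, leaving out each array, and averaging the probe sets that share a gene. Scaling to the hybridization controls, the filter together with a left-out array, and the filter, variance and block settings for the lists were added after seeing the data. No columns (0) were left unused.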

Additional observations from a re-analysis of the deposited data

How the results depend on the processing

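The differences of Rbp4, Cebpa, Retn, Lep and Adipoq kept their direction in every alternative run, from -1.53 to -0.67 for Rbp4, -1.21 to -0.71 for Cebpa, -1.15 to -0.49 for Retn, -1.17 to -0.15 for Lep and -0.91 to -0.28 for Adipoq. No member probe set was called over all probe sets. In the test of probe sets above the median level 0 of 14 passed by limma, with adjusted p of 0.0621 for Rbp4, 0.109 for Cebpa and 0.172 for Retn. Of the 14, 3 had an unadjusted p under 0.05 (limma), against 2738 of all 22518 probe sets at that level. With 1 array left out as well, 0 to 2 passed by limma. Without KO replicate 1 it was Rbp4 (adjusted p = 0.0128), where 1350 of the 22518 passed. Without KO replicate 3 they were Rbp4 (0.00244) and Cebpa (0.0139), where 312 of the 22518 passed. Signs turned where differences were small. Scaling to the hybridization controls, which moved the median of all probe sets to 0.11, gave 0.067 and 0.12 for the bright Fabp4 probe sets, 0.18 for Pparg and 0.16 for Adipor1 1424312_at, and the mean of the Fabp4 probe sets was 0.11. With 1 array left out, Fabp4 1451263_a_at ranged from -0.538 to 0.0532 (highest without WT replicate 1), Pparg from -0.31 to 0.31 (0.0871 without WT replicate 1), Adipor1 1424312_at from -0.26 to 0.0034, and Adipor2 1434329_s_at from -0.0632 (without KO replicate 3; -0.0219 without WT replicate 3) to 0.30, with or without the filter. Of the list medians near 0, scaling to the hybridization controls also turned those of the brown genes (0.06), other adipokines (0.16) and retinol genes (0.05).

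Over all probe sets 4 were called, against 9 with quantile normalization, 11 with median centring, 15 with a trended and robust variance, 79 above the median level, 1 with an offset of 64, 1 to 6 with 1 array left out, and 8, 67, 8, 1350, 13 and 312 with the filter and without WT replicates 1, 2 and 3 and KO replicates 1, 2 and 3. Of the list genes 0 of 109 were called, 1 with median centring (Scd1), 2 with a trended and robust variance (Scd1, Ucp1), 4 above the median level (Scd1, Ucp1, Agpat2, Cidea), 0 to 1 with 1 array left out (Ucp1 without KO replicate 1), and 1, 7, 1, 19, 2 and 16 with the filter and the same arrays left out in that order. Runs with the filter tested 22518 probe sets, and only the list genes among them, while the runs without it tested 45037. No pairing by replicate number was seen in the deviations from group means, which correlated at -0.057, 0.026 and -0.057 for same-numbered arrays. With 3 arrays per group these values cannot exclude a pairing. The replicate block gave 0 calls by limma, with 3367 probe sets at an unadjusted p under 0.05. The cause of these changes was not tested. The dimness of Lep, around or below the median intensity, and 3 arrays per group limit what can be seen.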

Other observations

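Genes of retinol handling, the pathway that Rbp4 serves, had 4 of 13 measured members higher and 9 lower on average in KO. Their median log2 difference was -0.12 (0.05 with arrays scaled to the hybridization controls), and 0 passed by limma. At an unadjusted p under 0.05 (limma) there was 1 of the 13, lower in KO, against 4.99% of all probe sets in that direction. That 1 was Rxrg, a retinoid X receptor of muscle, which read 146.1, 118.7 and 81.7 in WT and 77.1, 25.3 and 28.7 in KO, with every KO array below every WT array. Stra6, the cell-surface receptor for the Rbp4 protein, was dim at 3.3 to 14.1 and 2.1 to 2.7. The alternative complement genes, the cascade that adipsin starts, had 6 of 7 measured members lower, a median of -0.39 and 0 passing. Of the 7, 2 had an unadjusted p under 0.05 (limma), C3ar1 and Masp1. Both were lower, against 4.99% of all probe sets in that direction. The complement median was -0.24 without WT replicate 2, -0.18 with arrays scaled to the hybridization controls, and -0.66 and -0.13 with offsets of 1 and 64. C3ar1, a complement peptide receptor, read 28.2, 23.7 and 28.6 against 16.8, 13.2 and 19.9. Other fatty acid binding proteins had 4 of 8 higher and 4 lower, a median of 0.01 (from -0.10 to 0.11 over the alternatives, the sign turning) and 0 passing, none of them (0) at an unadjusted p under 0.05. Fabp5, the form that fat cells make beside Fabp4, read 233.3, 115.4 and 125.2 against 102.8, 158.3 and 67.9.

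Markers of further cell types had these levels beside the adipocyte genes. The macrophage list had 4 of 9 members higher and 5 lower, with summed intensities of 397 to 672 in WT and 345 to 573 in KO. The fibro-adipogenic progenitor list had 6 of 7 lower, with sums of 3608 to 6248 and 2201 to 3323. The hepatocyte list had 2 of 4 higher, with sums of 52.3 to 434 and 83.7 to 152, and the Schwann cell list 2 of 3 higher, with sums of 117 to 229 and 166 to 332. The skeletal muscle fibre list had 2 of 10 higher, with sums of 72010 to 117640 and 76327 to 80237. Bright members of it such as Ckm lay near the highest intensity of the arrays, and their saturation was not tested. No member of these lists passed over all probe sets (0 of each list by limma), and their part in the values of the adipocyte genes was not tested.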
